A study of Homo sapiens with 23 samples.

Results

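The RNA of 10 transcription factors of epithelial and intestinal cells was followed across cells that lack one or more argonaute (AGO) proteins: *GRHL1*, *GRHL2*, *OVOL1*, *OVOL2*, *ELF3*, *EHF*, *KLF4*, *KLF5*, *CDX2* and *HNF4A*. The genes were taken as a list of symbols and matched to Ensembl identifiers without their version numbers, and each of the 10 had a single identifier among the 57875 genes of each file. RNAseq libraries came from HCT116, a human colorectal carcinoma cell line, with 3 biological replicates for each of 5 lines and 15 samples in all. Wild-type HCT116 cells were the control, and the knockout lines lacked *AGO1*, or *AGO2*, or *AGO1* with *AGO2* (the double knockout, AGO1/2 in the plots), or *AGO1* with *AGO2* and *AGO3* (the triple knockout, AGO1/2/3 in the plots), after CRISPR editing of HCT116, as the study's methods describe. Growth conditions were shared by the 5 lines, and no drug or other agent separated them. The study reports slower growth than wild-type cells for the *AGO2*, double and triple knockout lines, the triple knockout being slowest. Growth rate was not taken into account here. Each genotype is 1 line, so genotype and line cannot be told apart. For the same reason p-values measure the spread between cultures of a line and not between independently edited lines. Values are estimated counts that were scaled to a common depth, called normalized counts below, with the standard deviation (SD) over the 3 replicates.

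AGO proteins carry microRNAs (miRNAs) to matching sites in messenger RNAs, mostly in the 3′-untranslated region (3′-UTR), where they usually lower the level of the RNA. The grainyhead factors GRHL1 and GRHL2 switch on genes of cell junctions, and the zinc finger proteins OVOL1 and OVOL2 repress genes of the mesenchymal state, among them the gene of the repressor ZEB1. ELF3 and EHF are ETS factors largely restricted to epithelia. KLF4 and KLF5 are Krüppel-like factors of the differentiated and the dividing gut epithelium, respectively, while the homeobox protein CDX2 and the nuclear receptor HNF4A set intestinal identity.

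Total counts per sample lay between 27709971 and 45271146, with a median of 30701840, and the 10 genes all passed the filter on low counts that kept 22842 genes for testing. *AGO1* was called lower in the 3 lines edited at it, with log2 fold changes of -2.01 to -1.84, and *AGO3* was called lower in triple knockout cells at -1.12. *AGO2* RNA had log2 fold changes of -0.51, -0.26 and 0.40 in the *AGO2*, double and triple knockout cells, the last of these higher than wild-type cells. An edit that stops the protein can leave the RNA in place, so the RNA level does not check the *AGO2* labels, and lines are named here as labelled. The study itself checked the knockout lines by DNA sequencing and by Western blot, where the targeted proteins were absent. Of 8 markers of colorectal epithelium, 5 were at or above 1 CPM (a count scaled to the library total) in every line, with a summed level of 1325 to 2637 CPM over the samples, and the mature gut markers *VIL1*, *LGALS4* and *CDH17* were below 1 CPM. The sum hides changes of single epithelial markers. Of the 6 tested, 2 were called lower and 1 higher in triple knockout cells, beside 19.8% and 20.3% of all genes tested. The other 3 were not called, and the median log2 fold change of the 6 was 0.10. *EPCAM* and *CDH1* had means of 63.6 and 8.57 CPM in triple knockout cells, and of 213 and 97.7 CPM in wild-type cells. The sum over the 8 markers was 1630 to 2120 CPM in triple knockout and 1713 to 1918 CPM in wild-type samples. Marker lists of fibroblasts, leukocytes, endothelium and neurons summed to at most 30.5 CPM in any sample. In such bulk RNA, fewer cells that express a gene and less RNA per cell cannot be told apart.

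All 10 factors differed among the 5 lines, beside 56.4% of all genes tested (edgeR's quasi-likelihood test, Benjamini-Hochberg adjusted p at or under 0.05). Against wild-type cells, 3 of the 10 passed this test in *AGO1* knockout cells, where 8.68% of all genes did (3.17% higher and 5.50% lower), and these were *GRHL2*, *OVOL1* and *EHF*, all lower. In *AGO2* knockout cells *KLF4*, *KLF5* and *HNF4A* were lower, 3 of 10 beside 19.3% of all genes (8.55% higher and 10.8% lower). The files of these samples name another quantification mode than the rest, which cannot be told apart from the *AGO2* genotype here or below. In double knockout cells 8 of 10 passed beside 16.7% (8.37% higher and 8.35% lower), with *HNF4A* higher and the other 7 lower, all but *OVOL2* and *CDX2*. In triple knockout cells 7 of 10 passed beside 40.1% (20.3% higher and 19.8% lower), with *OVOL2* higher and 6 lower, namely *GRHL2*, *OVOL1*, *ELF3*, *EHF*, *KLF5* and *CDX2*. With 2-fold as a further threshold, 3, 1, 5 and 4 of the 10 passed in the *AGO1*, *AGO2*, double and triple knockout cells, beside 3.40%, 5.83%, 5.78% and 15.9% of all genes tested. The median log2 fold change of the 10 was -0.23, -0.17, -0.87 and -0.70 in the *AGO1*, *AGO2*, double and triple knockout cells, where that of all genes tested was between -0.022 and 0.011. The 4 comparisons share the wild-type samples. The 10 factors were chosen with earlier results of these data known. Their counts and medians, here and below, are therefore a description and no independent test. The replicates of the knockout and wild-type cells did not overlap for 3, 3, 8 and 9 of the 10, in the same order, beside 23.1%, 37.1%, 29.7% and 50.0% of all genes tested.

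**Figure D1:**
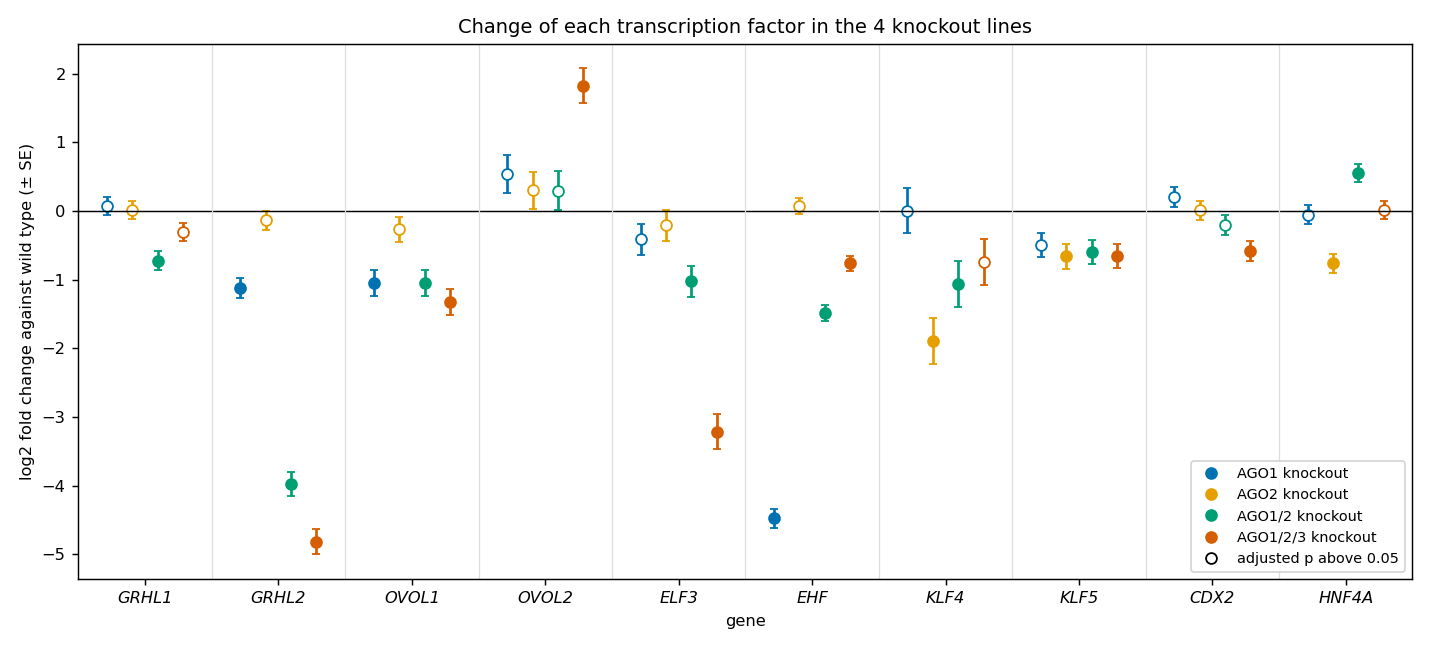
Log2 fold change of each of the 10 transcription factors against wild-type cells (vertical axis) in the 4 knockout lines (colours), with the standard error (SE) of the model as bars and open circles where the adjusted p was above 0.05. *EHF* lies at -4.47 in *AGO1* knockout cells alone of the 4 lines, *GRHL2* falls from -1.13 in *AGO1* to -4.82 in triple knockout cells, and *OVOL2* is at 1.83 in the triple knockout.

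The 10 genes spanned a wide range of levels. On the RPKM scale (CPM divided by the length of the exons in kilobases), the mean level in wild-type cells was highest for *KLF5* at 30.8 ± 9.13 RPKM (SD, n = 3), followed by *KLF4* at 12.4, *ELF3* at 9.14, *EHF* at 8.75 and *GRHL2* at 5.25 RPKM. *CDX2*, *OVOL1*, *GRHL1* and *HNF4A* lay between 2.42 and 0.939 RPKM, and *OVOL2* was lowest at 0.319 RPKM. *KLF5* kept the first place in all 5 lines. *EHF* moved from place 4 of 10 in wild-type cells to place 10 in *AGO1* knockout cells at 0.393 RPKM. *GRHL2* moved from place 5 to place 10 in the double and triple knockout cells, where it had 0.333 and 0.185 RPKM, and in the triple knockout *OVOL2* stood at place 5 with 1.14 RPKM.

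**Figure D2:**
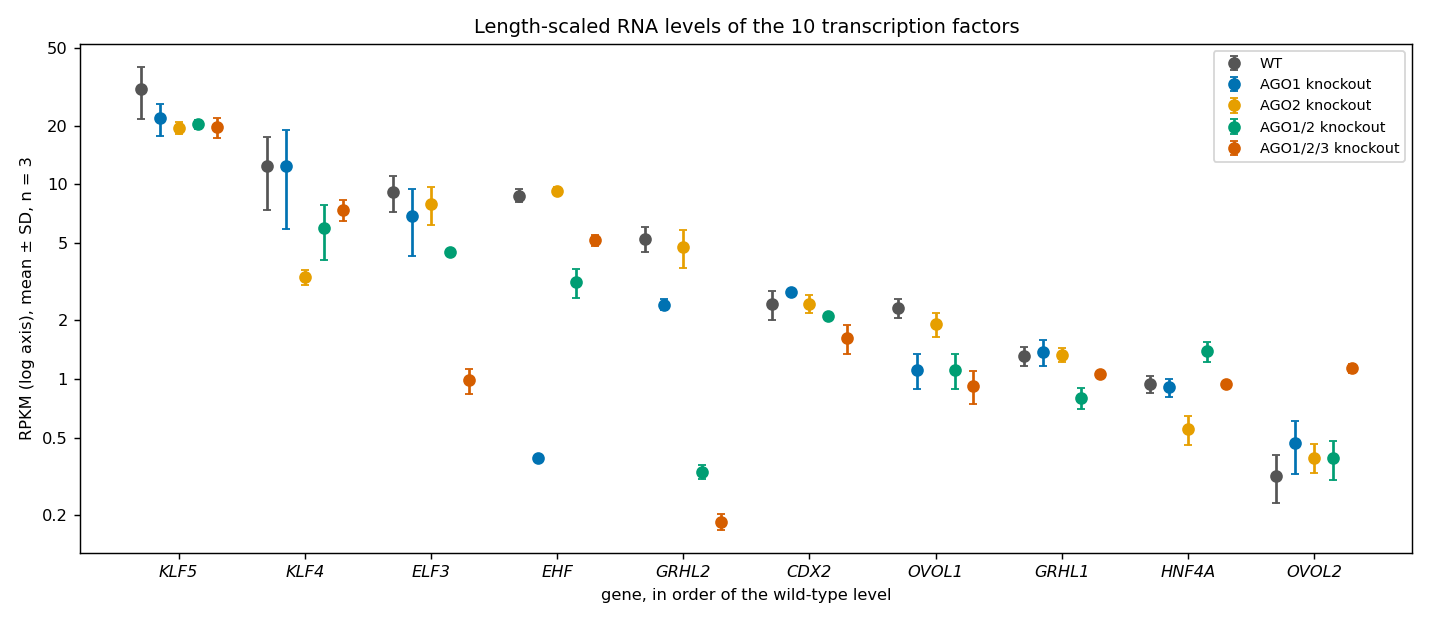
Length-scaled RNA level (RPKM, log axis) of the 10 genes in the 5 lines, ordered by the wild-type level, as the mean with the SD of 3 replicates. *KLF5* is highest in every line, *EHF* drops to 0.393 RPKM in *AGO1* knockout cells, and *GRHL2* to 0.185 RPKM in triple knockout cells.

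Since AGO proteins act through miRNAs, the 3′-UTRs of the 10 genes were read for matches to the seeds (bases 2 to 8) of let-7, miR-21, miR-27a, miR-29a, miR-125b and the miR-200 family, whose levels were not measured in these libraries. The mature miRNAs are shown because the sites printed with each gene below are the reverse complement of their seeds, which are in capitals (RefSeq, GRCh38.p14).
let-7a-5p: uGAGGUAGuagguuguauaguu
miR-21-5p: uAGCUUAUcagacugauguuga
miR-27a-3p: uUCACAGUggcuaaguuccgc
miR-29a-3p: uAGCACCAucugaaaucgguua
miR-125b-5p: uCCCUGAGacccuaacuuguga
miR-200b-3p: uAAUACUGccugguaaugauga
miR-141-3p: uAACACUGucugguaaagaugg
The seed of let-7a-5p is shared by let-7f-5p, that of miR-200b-3p by miR-200c-3p and miR-429, and that of miR-141-3p by miR-200a-3p. The 3′-UTRs searched are those of the Ensembl canonical transcripts in GENCODE v44, and had between 473 bases in *OVOL2* and 4357 in *EHF*, where the median over 19527 genes was 1064. *GRHL1*, *OVOL2*, *ELF3* and *CDX2* held none of these 7-base matches, and the other 6 genes held between 1 and 4. A match is a description of the sequence, and says nothing of whether a site is used.

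*GRHL2* (ENSG00000083307, chromosome 8, 101492439 to 101669726, plus strand, GRCh38) activates genes of epithelial junctions and represses *ZEB1*. Its wild-type replicates had 1218, 909 and 1041 normalized counts. The *AGO1* knockout replicates had 484, 452 and 516, and the *AGO2* knockout replicates 1206, 821 and 852. In double knockout cells the values were 68.2, 60.8 and 72.3, and in triple knockout cells 37.3, 33.8 and 40.6. The *AGO2* knockout replicates overlapped with wild-type cells, and those of each other line lay below every wild-type replicate. The log2 fold change was -1.13 (SE 0.15, edgeR's adjusted p = 0.000252) in *AGO1* knockout cells, which kept 45.8% of the wild-type mean. It was -3.98 (SE 0.17, edgeR's adjusted p = 2.08e-09) in the double and -4.82 (SE 0.18, adjusted p = 1.93e-10) in triple knockout cells, where 6.35% and 3.53% of the wild-type mean were left. In *AGO2* knockout cells it was -0.14 (SE 0.14, adjusted p = 0.518). Each step of the order wild-type or *AGO2*, *AGO1*, double and triple knockout cells passed the test, with -2.85 between the double knockout and *AGO1* lines (adjusted p = 3.21e-08) and -0.85 between the triple and double knockout lines (adjusted p = 0.00665). The 3′-UTR of *GRHL2* held 1 match to the seed of miR-21 and 1 to that of miR-141.

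*GRHL2* lies on the long arm of chromosome 8 (8q), whose genes were lower as a group in 2 of the lines. Over the 356 expressed genes of 8q (mean level of 1 CPM or more), the median log2 fold change was -0.51 in the double and -0.45 in triple knockout cells, against 0.023 and 0.036 on the other chromosomes. In the *AGO1* and *AGO2* knockout cells the 8q medians were 0.0011 and 0.023. Fewer copies of the arm and less RNA per copy cannot be told apart here. Of the other genes of the arm, 5, 3 and 1 were as low as *GRHL2* in the *AGO1*, double and triple knockout cells. The 44 expressed genes that start within 5 Mb of it had a median of -0.50 and a range of -1.16 to 0.52 in double knockout cells, and a median of -0.39 and a range of -2.14 to 1.48 in triple knockout cells. None of them was as low as *GRHL2* in either line or in *AGO1* knockout cells, where their lowest value was -0.41. Relative to the median of its neighbours, *GRHL2* was at -1.15, -3.47 and -4.43 in the *AGO1*, double and triple knockout cells on the log2 scale.

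**Figure D3:**
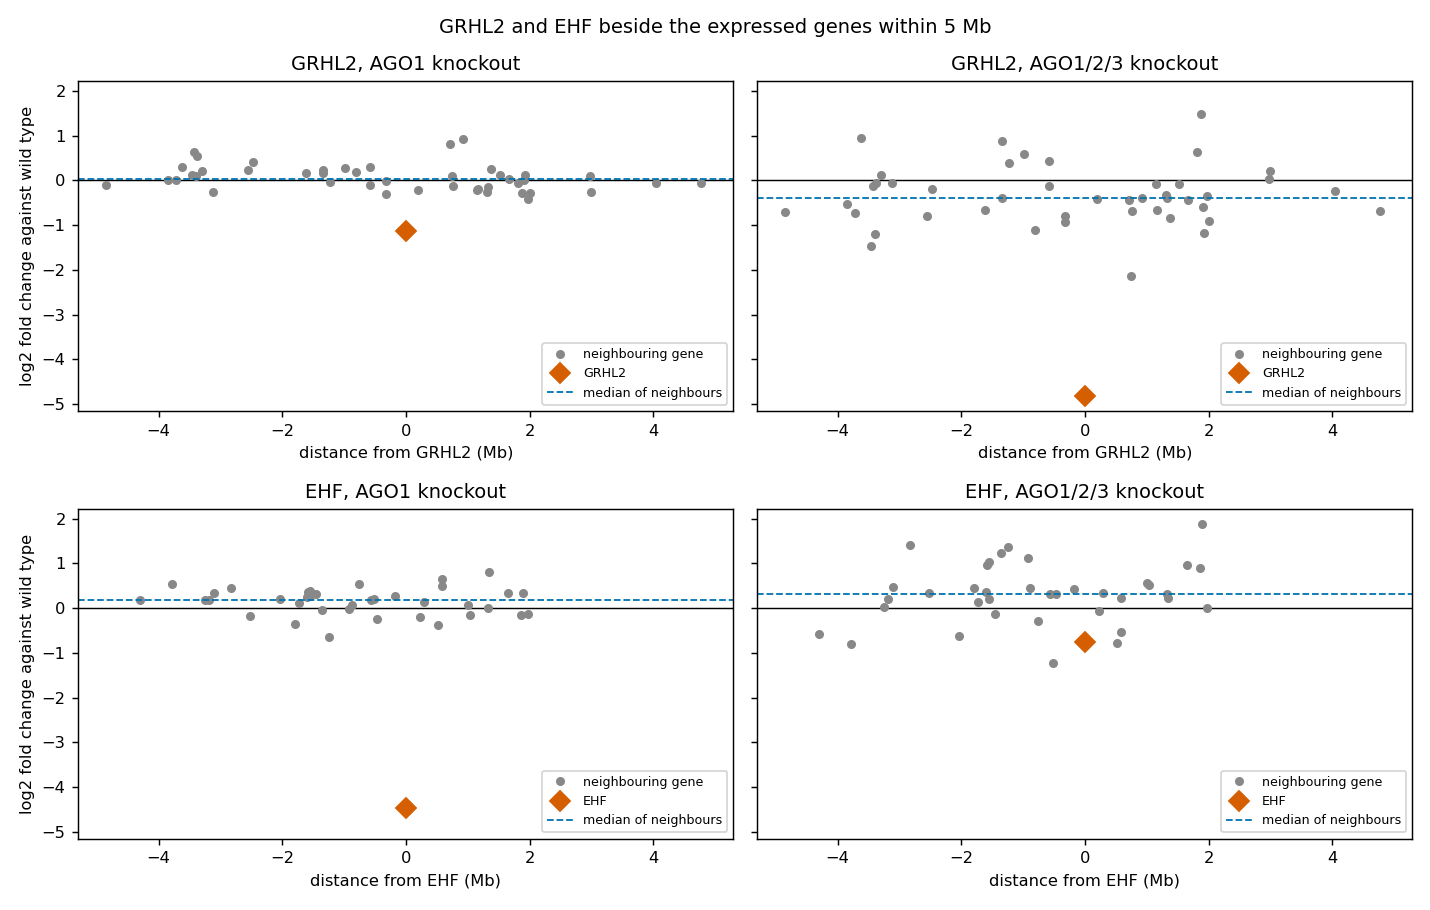
Log2 fold change against wild-type cells (vertical axis) of *GRHL2* and *EHF* (diamonds) and of the expressed genes within 5 Mb (points), by distance in Mb, in *AGO1* and triple knockout cells, with the median of the neighbours as a dashed line. *GRHL2* lies below all 44 neighbours in both lines, and *EHF* below all 37 in *AGO1* knockout cells, while 3 neighbours of *EHF* lie below it in triple knockout cells.

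*GRHL1* (ENSG00000134317, chromosome 2, 9951693 to 10002277, plus strand), the paralog of *GRHL2*, had smaller fold changes. It had 321, 391 and 329.8 normalized counts in the wild-type replicates and 197, 195 and 240.1 in the double knockout replicates, all of which lay below wild-type cells. The log2 fold change was -0.72 (SE 0.13, edgeR's adjusted p = 0.00175). The triple knockout replicates, with 278, 291 and 270.5, also lay below wild-type cells, at -0.31 (SE 0.13, adjusted p = 0.0754), which did not pass the threshold. They passed it at -0.34 without *AGO1* knockout replicate 2 or replicate 3 and without double knockout replicate 3, with adjusted p between 0.0412 and 0.0473. The same held with total counts alone and with at least 10 counts in every sample (-0.45 and -0.38, adjusted p = 0.0117 and 0.0295). The triple knockout was 0.41 above the double knockout (adjusted p = 0.0411), and this call was lost when *AGO1* replicate 1, *AGO2* replicate 2 or 3, double knockout replicate 1 or 2, or any triple knockout replicate was left out (adjusted p of 0.0503 to 0.145, log2 fold changes of 0.35 to 0.41). It was also lost with total counts alone, with no filter and with at least 10 counts in every sample (adjusted p = 0.0691, 0.108 and 0.0532). Means in the *AGO1* and *AGO2* knockout cells were 364 ± 54.4 and 352 ± 29.2 normalized counts (SD, n = 3), beside 347 ± 38.2 in wild-type cells.

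**Figure D4:**
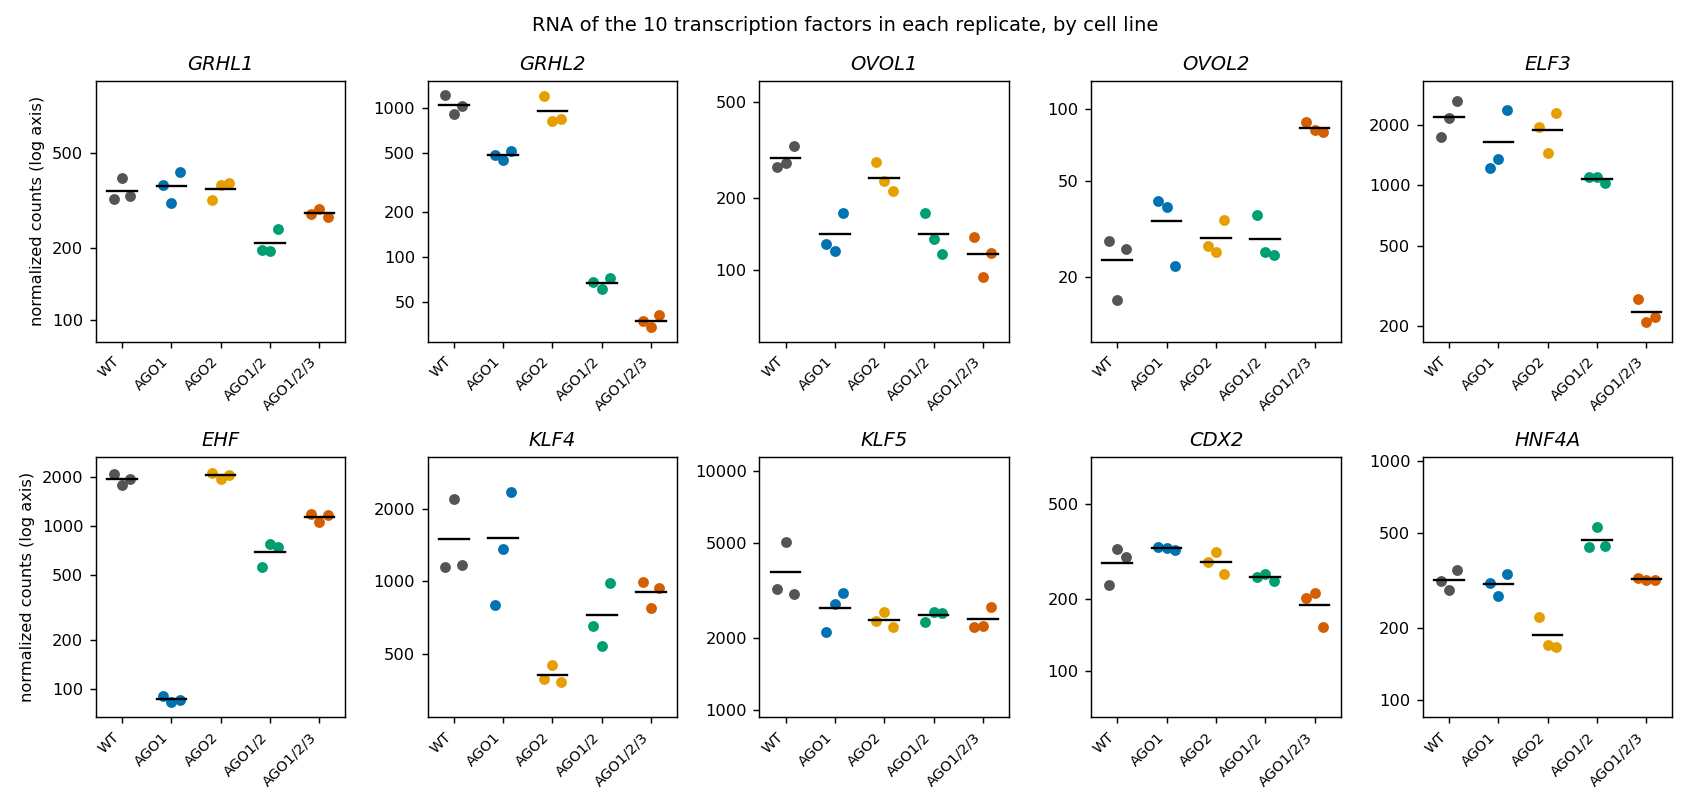
Normalized counts (log axis, one panel per gene) of each of the 3 replicates of the 5 lines, with the line mean as a bar. *GRHL2* steps down from wild-type to *AGO1*, double and triple knockout cells, *EHF* is lowest in *AGO1* knockout cells, at 83.8 to 90.0 normalized counts, and *KLF4* spreads widely among the replicates of wild-type and *AGO1* knockout cells.

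*OVOL1* (ENSG00000172818, chromosome 11, 65787063 to 65797214, plus strand), a repressor of mesenchymal genes, was lower in each line that lacked *AGO1*. The wild-type replicates had 268, 279 and 329.8 normalized counts. Those of the *AGO1* knockout cells had 128, 120.3 and 173. Double knockout cells had 173, 134 and 116, and triple knockout cells 137, 93.2 and 117. None of these 9 values reached the wild-type range, while the *AGO2* knockout replicates, at 281, 234 and 213, overlapped it. The log2 fold changes were -1.05 (SE 0.19, edgeR's adjusted p = 0.0028), -1.05 (SE 0.19, adjusted p = 0.00133) and -1.33 (SE 0.19, adjusted p = 5.1e-05) in the 3 lines, and -0.27 (SE 0.18, adjusted p = 0.308) in *AGO2* knockout cells. The *AGO1*, double and triple knockout lines did not differ from one another beyond their spread, with 0.0073 between the double knockout and *AGO1* lines (adjusted p = 0.987) and -0.28 between the triple and double knockouts (adjusted p = 0.354). The double knockout cells were -0.78 from the *AGO2* cells (adjusted p = 0.00773). The 3′-UTR of *OVOL1* held 1 match to the seed of miR-125b, at chr11:65795835-65795860 on the plus strand (GRCh38), shown with the match in capitals.
OVOL1, miR-125b match: ggcttctaatgCTCAGGGttctggag
Over all 19527 genes searched, 14.7% held a match to this seed.

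*OVOL2* (ENSG00000125850, chromosome 20, 17956979 to 18059188, minus strand), the related repressor of *ZEB1*, moved the other way. It had 28.1, 15.9 and 26.1 normalized counts in the wild-type replicates and 88.2, 81.5 and 80.0 in the triple knockout replicates, so that the lowest triple knockout replicate was above every replicate of the other 4 lines. The log2 fold change was 1.83 (SE 0.25, edgeR's adjusted p = 3.49e-05) against wild-type and 1.53 against double knockout cells (adjusted p = 0.000412). Means of the *AGO1*, *AGO2* and double knockout cells were 34.1 ± 10.4, 28.9 ± 4.92 and 28.6 ± 6.56, beside 23.4 ± 6.55 in wild-type cells (SD, n = 3), and these 4 lines did not differ in any pair tested. Outside the triple knockout *OVOL2* had 15 to 41 counts per sample, and smaller changes in those lines may not have been detectable at this depth.

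*ELF3* (ENSG00000163435, chromosome 1, 202007945 to 202017183, plus strand), an ETS factor of epithelial differentiation, fell most in the triple knockout. The wild-type replicates had 1734, 2174 and 2645 normalized counts, the double knockout replicates 1098, 1097 and 1028, and the triple knockout replicates 273, 209 and 222. The 3 lines were separated, each group lying below the one before. Log2 fold changes were -1.02 (SE 0.23, edgeR's adjusted p = 0.00578) in the double and -3.21 (SE 0.25, adjusted p = 1.2e-07) in triple knockout cells, with 49.2% and 10.7% of the wild-type mean left. The step from the double to the triple knockout was -2.19 (SE 0.24, adjusted p = 1.39e-05). The *AGO1* knockout replicates had 1214, 1358 and 2361 and overlapped with wild-type cells, as did the *AGO2* knockout replicates with 1942, 1443 and 2282. Their log2 fold changes of -0.41 and -0.21 did not pass (adjusted p = 0.306 and 0.532). *AGO1* knockout replicate 3 stood above the other 2, and without it the value in *AGO1* knockout cells was -0.74 and passed (adjusted p = 0.0282), whereas without replicate 1 it was -0.23. Of the 7 genes with an entry in the RefSeq promoter table (GRCh38.p14, 250 bases before to 50 after the start), *ELF3* was 1 of 2 with a match to CAGGTG or its reverse complement CACCTG, the E-box that ZEB1 and SNAI proteins are known to bind. It lay 120 bases before the start of the RefSeq promoter entry, which is inside the gene span given above. The site is at chr1:202010457-202010482 on the plus strand (GRCh38), with the match in capitals.
ELF3, E-box match: atatgcaaatCACCTGgggccaggag
On either strand, 20.6% of the 27305 promoters in the table held this E-box.

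*EHF* (ENSG00000135373, chromosome 11, 34621093 to 34663288, plus strand), the closest relative of *ELF3* among the 10, had its lowest level in a single knockout. The wild-type replicates had 2064, 1768 and 1944 normalized counts and the *AGO1* knockout replicates 90.0, 83.8 and 85.4, with no overlap and little spread. Double knockout replicates had 556, 776 and 739.9, and triple knockout replicates 1186, 1048 and 1168. These lay between the *AGO1* knockout and the wild-type values without touching either, and the *AGO2* knockout replicates, with 2116, 1922 and 2054, overlapped with wild-type cells. The log2 fold change in *AGO1* knockout cells was -4.47 (SE 0.14, edgeR's adjusted p = 5.89e-11), which left 4.49% of the wild-type mean. It ranked 22 from the lowest among 22842 genes tested. It was -1.48 (SE 0.12, adjusted p = 8.93e-07) in the double and -0.76 (SE 0.11, adjusted p = 7.74e-05) in triple knockout cells. In the double knockout cells *EHF* was 3.0 above the *AGO1* cells (adjusted p = 1.38e-09), both without *AGO1*, and in the triple knockout cells 0.72 above the double knockout cells (adjusted p = 0.00041). *EHF* did not move with its neighbours on chromosome 11. The 37 expressed genes within 5 Mb had a median of 0.19 in *AGO1* knockout cells, with -0.64 as the lowest.

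The 3′-UTR of *EHF* was the longest of the 10 and held the most matches, 1 to let-7 at chr11:34660695-34660720, 2 to miR-27a at chr11:34662307-34662332 and chr11:34662419-34662444, and 1 to miR-141 at chr11:34661686-34661711, all on the plus strand (GRCh38). They are printed because *EHF* showed the largest change of a factor in a single knockout, with the 7 matched bases in capitals.
EHF, let-7 match: gctcctctattCTACCTCtctttctc
EHF, miR-27a match 1: atgaacattttACTGTGAgactcttt
EHF, miR-27a match 2: ccttattgggaACTGTGAgacttatc
EHF, miR-141 match: acttcccaccaCAGTGTTgaaaggga
Matches to these seeds were found in 9.75%, 15.7% and 18.2% of all genes searched, shares that depend on the length of the 3′-UTR.

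*KLF4* (ENSG00000136826, chromosome 9, 107484852 to 107490482, minus strand), a factor of differentiating gut cells, was lowest in *AGO2* knockout cells. The wild-type replicates had 1144, 2220.4 and 1169 normalized counts and the *AGO2* knockout replicates 391, 449 and 379, so that the groups were well apart. The log2 fold change was -1.89 (SE 0.34, edgeR's adjusted p = 0.00292), with 26.9% of the wild-type mean left. *AGO1* knockout replicates ranged widely, with 799.9, 1373 and 2371, and their mean was 100.2% of that of wild-type cells. In the double knockout cells the values were 653, 539 and 984, below wild-type cells in each replicate, and the log2 fold change was -1.06 (SE 0.33, adjusted p = 0.0407). That call was lost without wild-type replicate 2 (-0.69, adjusted p = 0.171), *AGO1* replicate 2 (-1.06, adjusted p = 0.0516), or double knockout replicate 1 or 2 (-1.01 and -0.90, adjusted p = 0.11 and 0.146), and with the compared lines alone (-1.08, adjusted p = 0.0612). In triple knockout cells the replicates had 990.2, 776 and 936, all below wild-type cells, with a log2 fold change of -0.74 (SE 0.33, adjusted p = 0.0867). Without wild-type replicate 2 it was -0.38, the smallest decrease with a library left out, and the largest was -0.93. It passed without *AGO1* replicate 1 or 3 (adjusted p = 0.0404 and 0.0315). The same held with total counts alone, with no filter and with the compared lines alone (adjusted p = 0.0365, 0.0129 and 0.0385). The triple knockout cells were 1.15 above the *AGO2* cells (adjusted p = 0.0128), and the double knockout cells 0.83 above them (adjusted p = 0.0859). The 3′-UTR of *KLF4* held a match to the seed of the miR-200b, miR-200c and miR-429 group at chr9:107485694-107485719 and one to miR-29a at chr9:107485255-107485280, both on the minus strand (GRCh38).
KLF4, miR-200b match: agaagagaattCAGTATTttttactt
KLF4, miR-29a match: agcctaaatgaTGGTGCTtggtgagt
These seeds matched in 16.0% and 14% of all genes searched.

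*KLF5* (ENSG00000102554, chromosome 13, 73054976 to 73077541, plus strand), a factor of the dividing crypt cells, had similar levels in the 4 knockout lines. The wild-type replicates had 3204, 5059.7 and 3056 normalized counts, replicate 2 standing above the other 2. The *AGO1*, *AGO2*, double and triple knockout means were 2665 ± 504, 2384 ± 175, 2488 ± 125 and 2394 ± 274 (SD, n = 3), and only the *AGO1* knockout replicates overlapped with wild-type cells. The log2 fold changes were -0.50 (SE 0.18, edgeR's adjusted p = 0.0936), -0.66 (SE 0.18, adjusted p = 0.0195), -0.60 (SE 0.18, adjusted p = 0.0283) and -0.66 (SE 0.18, adjusted p = 0.00734). No pair of knockout lines differed in this test, the largest difference being -0.16 between *AGO2* and *AGO1* (adjusted p = 0.548). Without wild-type replicate 2 the value was -0.42 in *AGO2* (adjusted p = 0.0802) and -0.35 in double knockout cells (adjusted p = 0.123), and both calls were lost. It was -0.41 in the triple knockout, where the call held, and -0.23 in *AGO1* knockout cells. The call in *AGO2* knockout cells was also lost without *AGO2* replicate 3 (-0.64, adjusted p = 0.0703) and in a fit of the compared lines alone (-0.67, adjusted p = 0.0632), and that in double knockout cells without any 1 of its own replicates (adjusted p of 0.0614 to 0.0833) or in that fit (-0.62, adjusted p = 0.0866). *AGO1* knockout cells passed without wild-type replicate 3 (-0.63, adjusted p = 0.0466). The 3′-UTR of *KLF5* held a match to miR-21 at chr13:73076732-73076757, with an adenine after it, and one to miR-141 at chr13:73076212-73076237, both on the plus strand (GRCh38).
KLF5, miR-21 match: aacctcttacaATAAGCTaaacgcaa
KLF5, miR-141 match: atttaatgtgaCAGTGTTcagtaaac
Of all genes searched, 8.58% held a match to the seed of miR-21.

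*CDX2* (ENSG00000165556, chromosome 13, 27960918 to 27969315, minus strand), the homeobox factor of intestinal identity, was lower in the triple knockout alone among the 4 comparisons with wild-type cells. Its wild-type replicates had 228, 323 and 299 normalized counts and its triple knockout replicates 202, 212 and 152, with no overlap. The log2 fold change was -0.58 (SE 0.15, edgeR's adjusted p = 0.00507). Means of the other knockout lines were 326 ± 6.11 in *AGO1*, 285 ± 29.8 in *AGO2* and 246 ± 7.29 in double knockout cells (SD, n = 3), with wild-type cells at 283 ± 49.4. The difference between the triple and double knockout lines was -0.38 (adjusted p = 0.0795), and it passed the threshold without wild-type replicate 1 or 2 (-0.40 in both, adjusted p = 0.0381 and 0.0402). The same held with at least 10 counts in every sample and with the compared lines alone (-0.42 and -0.41, adjusted p = 0.0468 and 0.0498). *CDX1*, the paralog of *CDX2*, had 0 counts in each of the 15 samples, which allows up to 3 counts per sample.

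*HNF4A* (ENSG00000101076, chromosome 20, 44355699 to 44432845, plus strand), a nuclear receptor of liver and gut, changed in both directions. The wild-type replicates had 314, 288 and 351 normalized counts, the *AGO2* knockout replicates 223, 171 and 167, and the double knockout replicates 434, 529 and 439.8. *AGO2* knockout cells lay below and double knockout cells above every wild-type replicate. The log2 fold changes were -0.76 (SE 0.14, edgeR's adjusted p = 0.00272) and 0.56 (SE 0.13, adjusted p = 0.00927). Without double knockout replicate 2, the highest of the 3, the latter was 0.45 and no longer passed (adjusted p = 0.0669). The double knockout cells were 1.32 above the *AGO2* cells (adjusted p = 9.09e-06) and the triple knockout cells -0.55 against the double knockout cells (adjusted p = 0.00812). Means in *AGO1* and triple knockout cells were 306 ± 32.5 and 320.1 ± 2.81, beside 318 ± 31.5 in wild-type cells (SD, n = 3). *HNF4A* was the other gene with the E-box, 202 bases before the start of its RefSeq promoter entry, at chr20:44355487-44355512. Its 3′-UTR held 1 match to miR-21, at chr20:44430863-44430888, and 1 to miR-29a, at chr20:44430022-44430047, all on the plus strand (GRCh38).
HNF4A, E-box match: tgtccccataCACCTGgctctgggtt
HNF4A, miR-21 match: atccaggaggaATAAGCTcccagggc
HNF4A, miR-29a match: cttccctagccTGGTGCTtctcctct
The files of the *AGO2* knockout samples name another quantification mode than the rest, and in every comparison with these samples mode and genotype cannot be told apart.

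The design also allowed lines to be compared with each other. From the double to the triple knockout, 6 of the 10 factors changed, beside 22.0% of all genes tested (11.9% higher and 10.0% lower), and 2 changed at least 2-fold, beside 6.59%. *GRHL1*, *OVOL2* and *EHF* were higher and *GRHL2*, *ELF3* and *HNF4A* lower in the triple knockout, and 7 of 10 did not overlap, beside 41.6% of all genes. The remaining pairs of knockout lines were compared after the values had been seen. There, 5 of 10 passed between the double knockout and the *AGO1* line (19.5% of all genes), 6 between the double knockout and the *AGO2* line (23.9%), 5 between *AGO2* and *AGO1* (18.4%), 6 between the triple knockout and the *AGO1* line (40.6%) and 8 between the triple knockout and the *AGO2* line (40.3%). The 2 single knockouts differed most at *EHF*, by 4.55 (adjusted p = 1.56e-11), and at *KLF4*, by -1.90 (adjusted p = 0.00167), both as *AGO2* minus *AGO1*, with the quantification mode differing as well. *GRHL2*, *OVOL1* and *HNF4A* also differed between them, by 0.99, 0.79 and -0.71 (adjusted p = 0.000365, 0.00992 and 0.00269).

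Whether loss of *AGO1* had the same effect with and without *AGO2* was tested as an interaction on the log2 scale. It passed for 4 of the 10 genes, beside 19.7% of all genes tested (11.5% above and 8.26% below 0), and for 3 with an interaction of at least 2-fold, beside 9.86%. Loss of *AGO1* changed *GRHL2* by -1.13 where *AGO2* was present and by -3.84 where it was absent, an interaction of -2.71 (SE 0.22, adjusted p = 2e-06). For *EHF* the corresponding values were -4.47 and -1.56, an interaction of 2.92 (SE 0.17, adjusted p = 8.31e-08) in the opposite direction. *HNF4A* had -0.054 and 1.32, with an interaction of 1.37 (SE 0.19, adjusted p = 0.000224). *GRHL1* had 0.069 and -0.74, with an interaction of -0.81 (SE 0.19, adjusted p = 0.00781). The double knockout of *GRHL2* thus lay below the sum of the single knockouts, -3.98 against -1.26, and that of *EHF* above it, -1.48 against -4.40. The 8q genes had a median of -0.51 in the double and of 0.0011 and 0.023 in the *AGO1* and *AGO2* knockout cells. The interaction of *GRHL2* includes any such shift of the arm, which was not separated from it. Of the other 6, *KLF4* passed without *AGO1* replicate 3 (1.27, adjusted p = 0.0366), where the value over all samples was 0.83 (SE 0.47, adjusted p = 0.232) and the lowest was 0.46, without wild-type replicate 2.

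Genes that these factors are known to control were read in the same fit. The lists were chosen with earlier results of these data known, so their counts are a description and no independent test. Of 18 epithelial genes downstream of the GRHL, OVOL and ELF factors, all tested, 10 were lower and 0 higher in *AGO1*, 9 and 0 in the double, and 13 and 0 in triple knockout cells, where 5.50%, 8.35% and 19.8% of all genes tested were lower. In *AGO2* knockout cells 2 were higher and 0 lower, which became 0 higher and 1 lower when total counts alone set the scale. Their median log2 fold change was -0.55, -0.015, -0.69 and -1.75 in the *AGO1*, *AGO2*, double and triple knockout cells. The largest decreases in the triple knockout were those of *RAB25*, a GTPase of apical traffic, at -6.36 (SE 0.21), *CDH1*, which encodes E-cadherin, at -3.51 (SE 0.26), and the tight junction gene *CLDN7* at -3.29 (SE 0.30). *RAB25* had 1087, 1168 and 1196 normalized counts in wild-type and 18.7, 11.6 and 10.1 in triple knockout cells. *CDH1* had 2808, 4459 and 2480.2 in wild-type and 290.2, 306 and 258 in triple knockout cells, again with no overlap. In double knockout cells *RAB25* was at -0.84 and *CDH1* at -1.66. Whether the levels of these genes follow those of the factors was not tested.

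Of 10 factors and markers opposed to the epithelial state, 8 were tested, and in triple knockout cells 3 were higher and 2 lower, with a median of 0.46, where 20.3% of all genes tested were higher and 19.8% lower. *ZEB1*, the repressor that GRHL2 and OVOL2 are known to hold down, had 263, 319 and 301 normalized counts in wild-type and 1809, 1944 and 2191 in the triple knockout replicates, a log2 fold change of 2.75 (SE 0.15). It was 0.75, 0.070 and 1.58 in the *AGO1*, *AGO2* and double knockout lines (adjusted p = 0.00402, 0.758 and 2.56e-06). Of the 2 genes known to hold *ZEB1* down, *GRHL2* was lower and *OVOL2* higher in triple knockout cells, at -4.82 and 1.83. Whether *ZEB1* follows either of them was not tested. *VIM*, the mesenchymal filament gene vimentin, was at 3.64 and *SNAI2* at 2.18, while *SNAI1* and *SNAI3* were lower, at -1.11 and -1.03. In the other lines 2 were higher and 1 lower (*AGO1*), 0 and 2 (*AGO2*), and 2 and 1 (double knockout). Of all genes tested, 3.17% and 5.50%, 8.55% and 10.8%, and 8.37% and 8.35% were higher and lower in these lines, and the same shares are the background of the lists below.

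**Figure D5:**
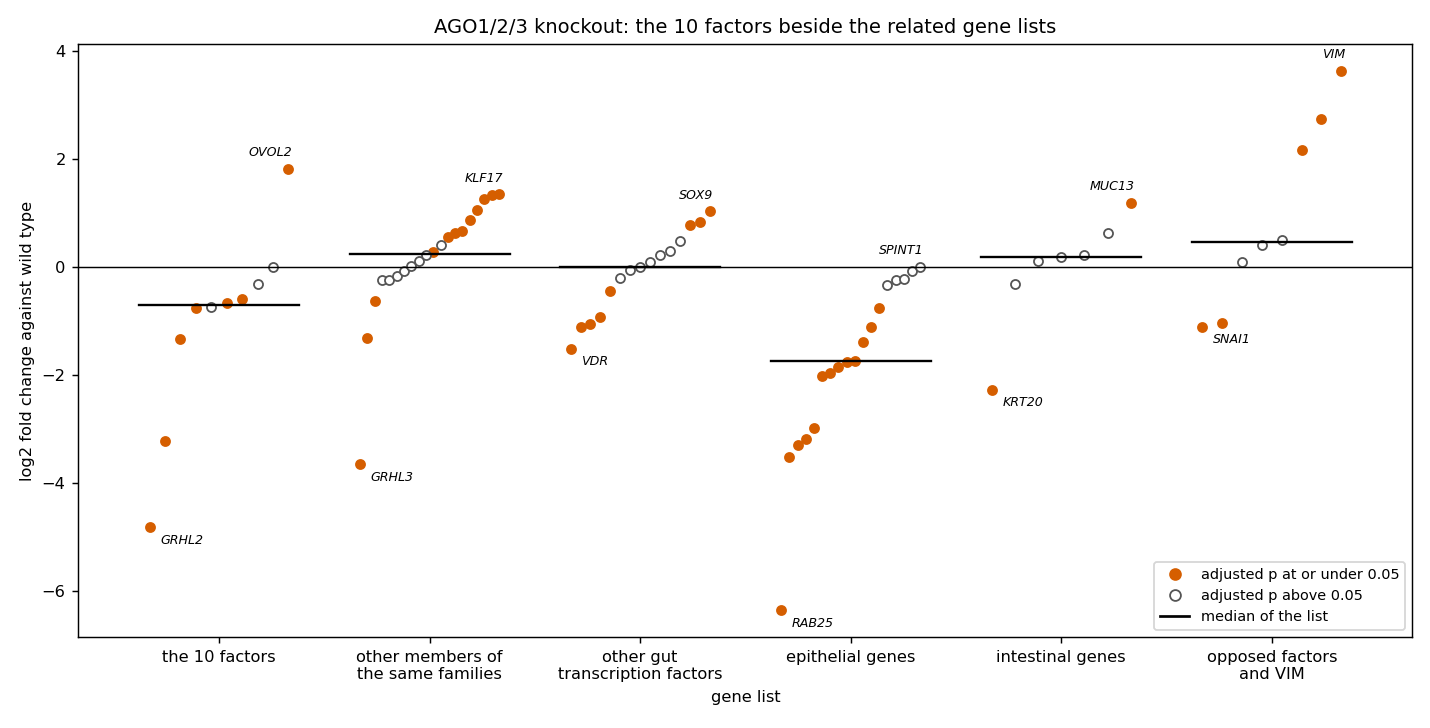
Log2 fold change in triple knockout cells against wild-type cells (vertical axis) of the 10 factors and of 5 related gene lists, each gene a point, filled where the adjusted p was at or under 0.05, with the list median as a bar and the lowest and highest gene named. The epithelial genes have a median of -1.75 with 13 of 18 lower, and the 10 factors a median of -0.70.

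The intestinal genes downstream of CDX2 and HNF4A were mostly silent in this cell line. Of 27 listed, 7 had enough counts to be tested, and in the triple knockout *KRT20*, a keratin of mature colon cells, was lower and *MUC13*, a membrane mucin, higher at 1.20 (SE 0.40), with 5 not called and a median of 0.19. Both rest on few counts. *KRT20* had 11 to 22 counts in wild-type and 2 to 7 in triple knockout samples, and *MUC13* had 11 to 17 and 20 to 45. None of the 7 passed in *AGO1* or double knockout cells, and 1 was higher and 1 lower in *AGO2* knockout cells. Among 23 other gut transcription factors, 15 were tested, and 3 were higher and 5 lower in the triple knockout, with a median of 0.0050, beside 20.3% and 19.8% of all genes tested, shares that are also the background for the intestinal genes and the family members. *SOX9*, a factor of crypt progenitors, was among those higher, at 1.03. The vitamin D receptor gene *VDR*, *PROX1* and *FOXA3* were lower, at -1.52, -1.10 and -1.05. Of these, *PROX1* rests on few counts, 23 to 39 in wild-type and 12 to 19 in triple knockout samples. In the *AGO1*, *AGO2* and double knockout cells 2, 1 and 1 of the 15 gut transcription factors were higher and 0, 4 and 6 lower. Of 25 other members of the families of the 10 factors, 20 were tested, and 9 were higher and 3 lower in triple knockout cells, with a median of 0.25, and these counts became 6 and 4 with total counts alone. The largest increases were those of *KLF17*, *KLF11* and *KLF14*, at 1.35, 1.35 and 1.26, and *KLF17* was near the limit of detection, with at most 19 counts in a triple knockout sample. *KLF14* also had few counts, 14 to 20 in wild-type and 36 to 43 in triple knockout samples. *KLF15* and *HNF4G* were lower at -1.31 and -0.62, and *HNF4G* lies on 8q, where the median was -0.45 in these cells. The third grainyhead gene, *GRHL3*, had 4 to 25 counts in wild-type samples and 0 to 2 in triple knockout samples. The latter are at or under the floor of 3 counts, so no fold is given and the list median does not depend on its fold. In the *AGO1*, *AGO2* and double knockout cells 2, 1 and 3 of the family members were higher and 5, 4 and 2 lower.

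For the 6 factors that changed at least 2-fold in a line, the genes with the most similar profile were sought among 16083 expressed genes (mean level of 1 CPM or more), as the smallest Euclidean distance between the 5 line means on the log2 scale after the mean of each gene was removed. Among the closest to *GRHL2* were *RND3* and *GALNT3*, at distances of 0.742 and 0.793. Of these, *GALNT3*, a glycosyltransferase gene, was at -1.46, -0.27, -3.77 and -4.13 in the *AGO1*, *AGO2*, double and triple knockout lines. *ELF3* was closest to *TRIM10*, *CYP24A1* and *EPHA1*, at 0.356, 0.385 and 0.422, and *CYP24A1*, which encodes the enzyme that breaks down vitamin D, had -3.51 in the triple knockout. *OVOL1* was closest to *SPAG4*, *MSH5* and *ADAP1*, at 0.134 to 0.263. *OVOL2* was closest to *ENSG00000278909*, *MAMLD1* and *TFPI*, at 0.10 to 0.189. *KLF4* was closest to *LAT2*, *PTPDC1* and *HBEGF*, at 0.245 to 0.413, and *HBEGF*, a gene of an EGF-like growth factor, had -2.06 in *AGO2* knockout cells. The genes nearest to *EHF* lay further away, *LINC02616*, *STUM* and *LINC02935*, at 1.46, 1.65 and 1.66. The 5 points are line means, each from 3 libraries of a single line.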

How the data were processed

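RNAseq libraries were prepared from total RNA with a stranded kit after removal of ribosomal RNA, as the study's methods describe. The submitters' processing notes name STAR 2.5.3a and Salmon 0.11.0, while the study's methods name other versions of both, and the genome was hg38. The authors deposited estimated counts (expected counts) per gene and sample, not normalized for depth, and 30.8% to 33.8% of the values in a file were not whole numbers. Salmon divides reads shared between related genes, which could blur paralogs. Files of the *AGO2* knockout samples carry the word quasi in their headers, a quantification mode that the other files do not name. The 8 eCLIP samples were not analysed here.

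Estimated counts were rounded, filtered with edgeR's filterByExpr, scaled by the TMM method and fitted together, each of the 5 lines having its own mean, (edgeR 4.0.16, R 4.3.3). Contrasts were tested with its quasi-likelihood test, with Benjamini-Hochberg adjustment of the p-values over the 22842 genes tested. Normalized counts refer to a library of mean size, and RPKM used the merged exon length of GENCODE v44, which also gave symbols (57167 of 57875) and positions. The biological coefficient of variation was 0.152. No pair of the 105 pairs of files was identical. The fit was tested on simulated data before use. With 3 samples in each line, the smallest two-sided p of an exact permutation test is 0.1, so none was used.

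The 10 members and the gene lists were chosen with earlier results of these data known. Named genes were the 10 members, the edited genes, and in each list the called genes with up to 3 largest increases and 3 largest decreases in triple knockout cells, with the 3 nearest profiles of each factor that changed 2-fold, a few of which are not reported here. Each sample was left out in turn. Other alternatives were scaling by total counts or by the size factors of DESeq2 1.42.0, the test of DESeq2, a filter of 10 counts per sample or none, a fit of the compared lines alone, a block for the replicate number, and a 2-fold threshold. Tables were made with Python 3.11.15, numpy 2.4.6 and pandas 2.3.3.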

Additional observations from a re-analysis of the deposited data

Results flagged for a closer look

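The effect of losing *AGO1* differed with the presence of *AGO2* for 4 of the 10 factors, by edgeR's test of the interaction. The interaction on the log2 scale was -2.71 for *GRHL2*, whose decrease was larger without *AGO2*, and 2.92 for *EHF*, whose decrease was smaller without *AGO2*. It was 1.37 for *HNF4A* and -0.81 for *GRHL1*, which passed the test against wild-type cells in the double knockout line and in neither single knockout. Over the samples left out in turn the values ranged from -2.83 to -2.50, 2.83 to 3.05, 1.26 to 1.54 and -0.96 to -0.75 for the 4 genes in that order. The 4 lines behind each interaction are single lines, so a difference of the line cannot be told apart from one of the genotype. Each interaction also includes the *AGO2* knockout samples, whose quantification mode differed and cannot be told apart from their genotype. That of *GRHL2* further includes any shift of the whole 8q arm, whose median was lowered in double knockout cells and in neither single knockout.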

How the results depend on the processing

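Of the log2 fold changes of the 10 factors under each alternative, 1275 kept their direction and side of the threshold, 38 lost and 18 gained a call, and 49 changed sign. The lost calls include those under the 2-fold threshold, which leaves the values and adjusted p of the main fit unchanged. With one library left out, the number of factors called was 3 to 4 in *AGO1*, 2 to 3 in *AGO2*, 5 to 8 in the double and 7 to 9 in triple knockout cells, 5 to 7 between the triple and double knockouts, 4 to 5 for the interaction and 9 to 10 for any difference. The lowest count in double knockout cells, 5, came without double knockout replicate 2. With a change of at least 2-fold required, 5 were called in the double, 4 in the triple and 1 in *AGO2* knockout cells, and 2 between the triple and double knockouts. Sign changes were found only for values that passed no threshold. With total counts alone, which moved the median of all genes tested in triple knockout cells from -0.0087 to -0.15 and in *AGO2* knockout cells from -0.022 to -0.14, they were *GRHL1* and *KLF4* in *AGO1* (-0.023 and -0.10), *GRHL1*, *EHF* and *CDX2* in *AGO2* (-0.10, -0.043 and -0.11) and *HNF4A* in triple knockout cells (-0.13). With at least 10 counts in every sample they were *GRHL1* and *CDX2* in *AGO2* (-0.020 and -0.029) and *HNF4A* in triple knockout cells (-0.054). *HNF4A* in triple knockout cells was also -0.000255 with DESeq2's size factors, -0.014 with no filter and -0.043 with only the samples compared. With one library left out, the ranges that crossed 0 were -0.016 to 0.19, -0.46 to 0.39 and -0.12 to 0.037 for *GRHL1*, *KLF4* and *HNF4A* in *AGO1*, -0.052 to 0.088, -0.0055 to 0.11 and -0.14 to 0.089 for *GRHL1*, *EHF* and *CDX2* in *AGO2*, and -0.080 to 0.059 for *HNF4A* in triple knockout cells. *KLF5* and *KLF4* in double knockout cells lost their calls under 6 and 5 of 23 alternatives, those of *KLF5* including the 2-fold threshold. The cause was not tested.

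The replicate numbers were not found to pair the samples. Deviations from the line means correlated by -0.0114 on average over 30 pairs with the same number, and by 0.00563 over 60 with different numbers. With the replicate number as a block, 3, 3, 8 and 7 of the 10 were called in the *AGO1*, *AGO2*, double and triple knockout cells, and the sign of *KLF4* in *AGO1* knockout cells, which was not called, changed (-0.057). Depth limits what can be said of *OVOL2* in wild-type cells (15 to 27 counts per sample) and of *GRHL2* in the triple knockout (29 to 44).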
